A study of Danio rerio with 2 samples.

Results

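Genes of the cilium were described in whole zebrafish larvae carrying the lri35 mutation and in their wild-type siblings. The members were the deposited gene rows whose symbol marks them as parts of the intraflagellar transport trains, the kinesin motors, the BBSome, the ciliary GTPases and their partner phosphatase, the transition zone or the motile axoneme. The rule uses symbols and no measured value, and 77 of the 33733 deposited rows met the rule. Larvae of both groups were of the AB/TL strain and 5 days post fertilization (5 dpf). Each genotype was 1 library of total RNA from the whole bodies of 20 pooled larvae. The mutants were homozygous, and the wild-type larvae came from the same clutch. The allele is spelled lri35 in the title of the series and lir35 in the sample labels, which do not say which gene it affects. The question of the study was which genes differ in expression between mutant and wild-type larvae.

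A cilium is a microtubule-based projection of the cell surface that grows from a basal body. Kinesin-2 motors carry trains of IFT-B and IFT-A proteins toward its tip, and the BBSome, a coat-like complex, rides on the trains and moves membrane proteins. The transition zone at the base acts as a gate. Motile cilia also carry axonemal dynein arms, which make the cilium beat, and radial spokes, which relay signals to the arms. In zebrafish larvae, motile cilia line the pronephric ducts, the olfactory pits and the brain ventricles, while photoreceptors and hair cells carry specialised cilia.

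Levels are given as FPKM, the number of sequenced fragments scaled to gene length and to library size. Because of the scaling to length, levels of different genes can be compared. The unit was inferred from the layout of the table, and no label states it. Each row's difference is the log2 ratio of mutant to wild-type FPKM after adding 1 FPKM to both, and a row was called higher or lower when it reached 2-fold on that scale. Folds of single genes are plain ratios of the FPKM values, so a low gene can have a large fold and still miss the call. Pool, library and genotype coincide, so every difference compares 2 libraries and none has a replicate check. In a whole larva, fewer ciliated cells and less RNA per cell cannot be told apart.

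The libraries had similar totals, 875340 FPKM in wild-type larvae and 874244 in mutants. Absolute depth is unknown. In 350 low rows the most frequent mutant-to-wild-type ratio was 0.801, as if 1.25 times as many fragments had been counted for the mutants.

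As a whole, the cilia genes were nearly level between the libraries. The 77 rows summed to 231.1 FPKM in wild-type larvae and 231.7 in mutants, which is 0.0264% and 0.0265% of each library. Of the 77, 45 had a mean of at least 1 FPKM, 26 lay below that mean but above 0 in at least 1 library, and 6 were listed at 0 in both. Among the 45, 2 were called higher and 2 lower, or 4.44% in each direction. Of the 19327 rows of the whole table at this level, 2.95% were called higher and 3.22% lower. Among rows no more abundant than the highest cilia row the shares were 3.5% and 3.67%. With 45 rows, these shares differ by a single row or less from the background. The median log2 difference of the 45 was 0.03, against -0.01 over all rows, with 24 above 0 and 21 below. The rows called lower were TMEM216, a gate protein gene, and dnal4b, a dynein light chain gene. Those called higher were 1 of the rows named dnali1, also a dynein light chain gene, and rsph4a, a radial spoke head gene. With a pseudocount of 5 FPKM in place of 1, none of the 4 reached 2-fold.

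**Figure D1:**
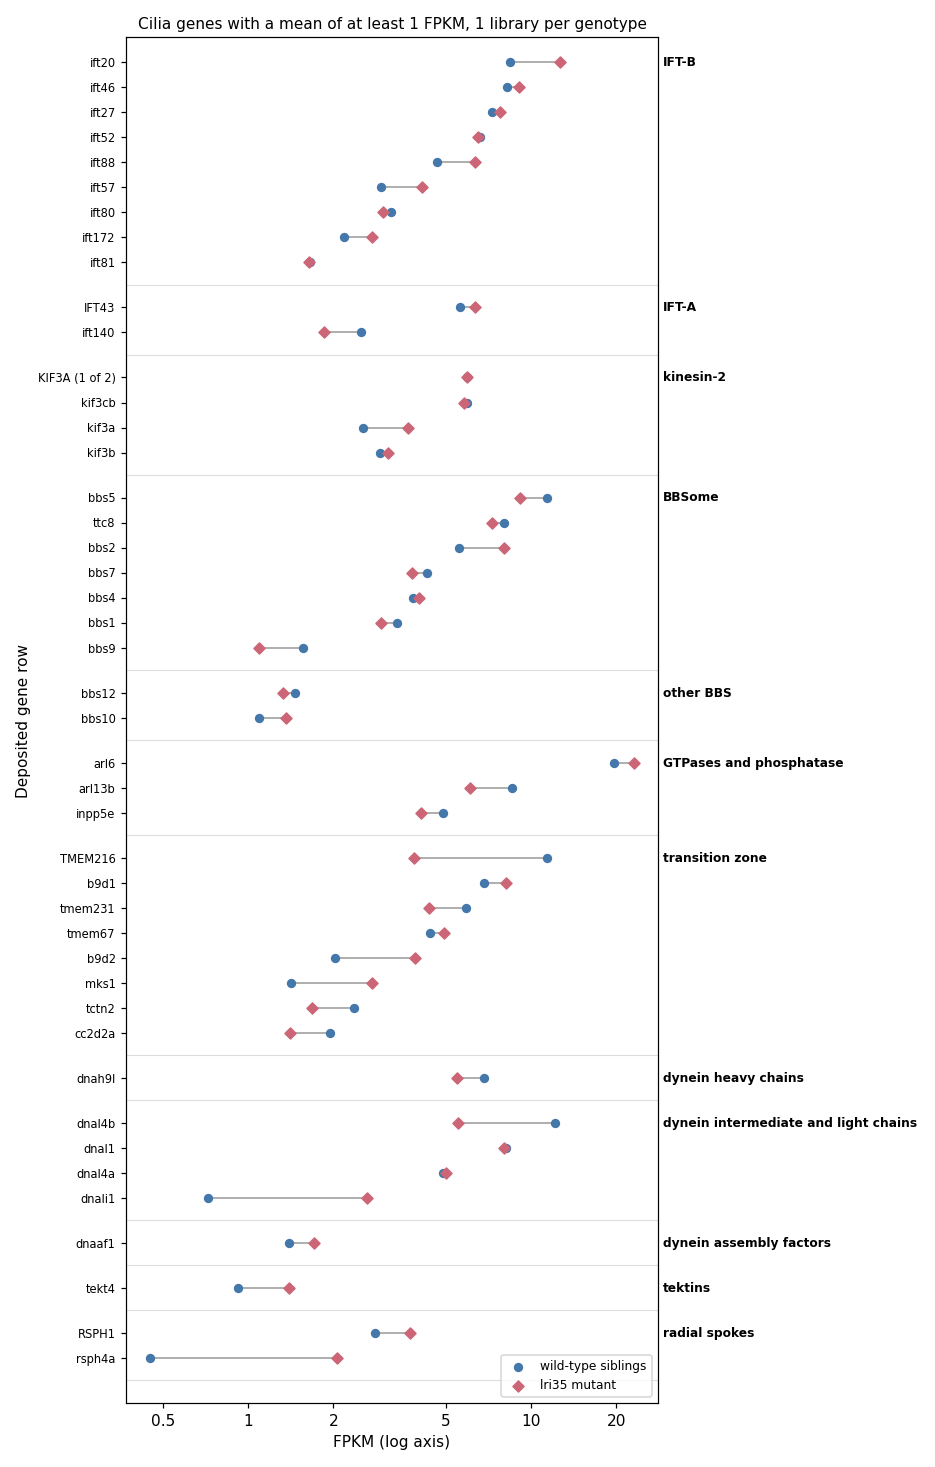
FPKM (log axis) of 44 of the 45 cilia gene rows with a mean of at least 1 FPKM, grouped by role; each row has a circle for the wild-type library and a diamond for the mutant library, joined by a line. Most pairs lie close together, and the longest lines belong to TMEM216, dnal4b, dnali1 and rsph4a.

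The size of the differences was set beside that of all rows at the same level. Between 5 and 25 FPKM, the median absolute log2 difference was 0.23 over 19 cilia rows and 0.22 over 8359 rows of the whole table. From 2 to below 5 FPKM it was 0.22 over 16 cilia rows and 0.31 over all 5084, and from 1 to below 2 FPKM it was 0.24 over 10 and 0.38 over 2636. Cilia genes had a lower median level than the table as a whole. Among rows with a mean of at least 1 FPKM, their median in wild type was 4.29 FPKM, against 6.83 for the whole table, and arl6 was the highest member, at 19.6 and 23.0 FPKM.

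**Figure D2:**
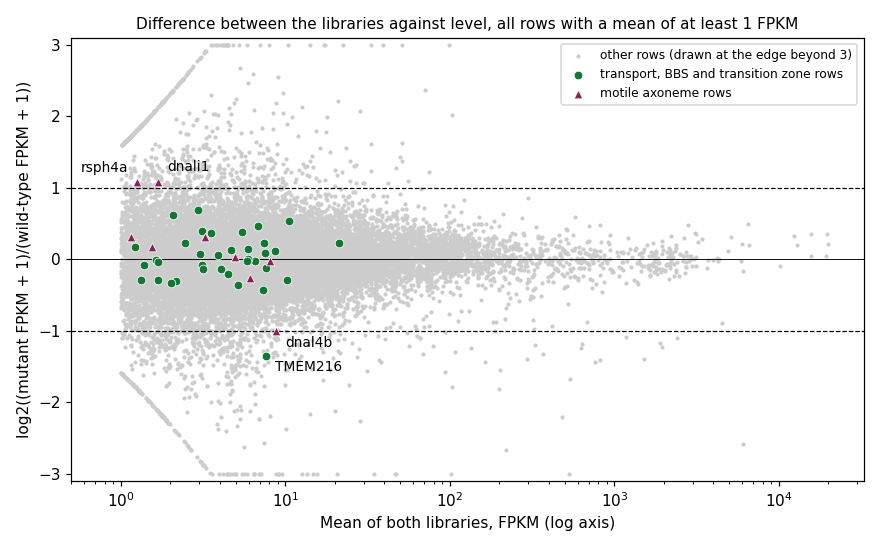
Log2 difference (mutant over wild type, vertical axis) against the mean of both libraries in FPKM (log axis) for all 19327 rows with a mean of at least 1 FPKM; circles and triangles mark cilia genes, grey points all other rows, dashed lines the 2-fold call. The cilia genes have means from 1.16 to 21.3 FPKM, and only the 4 labelled ones reach the dashed lines.

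The IFT-B genes, which encode the train that moves toward the tip, showed small differences, 6 higher and 3 lower in the mutant library. No row of the 9 reached 2-fold, and the median log2 difference was 0.12. The most abundant of the 9 was ift20, which encodes a subunit also found at the Golgi. It stood at 8.41 FPKM in wild-type larvae and 12.7 in mutants (1.51-fold higher). It shares its region with tmem97, which stood at 25.7 and 21.7 FPKM. A core train subunit gene, ift88, stood at 4.64 and 6.35 FPKM, and ift57 at 2.94 and 4.11. For ift46 the values were 8.25 and 9.05 FPKM, and for ift27, a small GTPase gene, 7.30 and 7.79. Those of ift172, the largest IFT-B protein, were 2.19 and 2.74 FPKM. The other 3 were almost equal between the libraries. The values of ift52 were 6.60 and 6.51 FPKM, those of ift80 were 3.20 and 2.99, and those of ift81 were 1.65 and 1.64. All 9 together summed to 45.2 FPKM in wild-type larvae and 53.9 in mutants. IFT genes under other symbols are in the list of other cilia genes described below. Among them, 1 row of hspb11 was more abundant, at 18.3 and 16.0 FPKM. Of the 17 measured rows of other IFT, dynein-2 and BBS genes, 9 were higher and 8 lower in the mutant library.

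IFT-A proteins, which serve the return trip from the tip and the entry of membrane proteins, were represented by ift140 and a pair of IFT43 rows. The ift140 row stood at 2.50 FPKM in wild-type larvae and 1.85 in mutants. It shares its region with tmem204, which was also lower in mutants, at 18.4 and 13.3 FPKM. One IFT43 row stood at 5.62 and 6.32 FPKM, and the other, a short neighbouring region, was listed at 0 in both libraries. Thus the measured IFT-A rows pointed in opposite directions, both by less than 2-fold.

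The kinesin-2 motor genes were close to equal, with 1 exception of modest size. The zebrafish table lists 2 copies of the motor subunit gene kif3a. The row named KIF3A (1 of 2) stood at 5.93 FPKM in wild-type larvae and 5.95 in mutants, while kif3a stood at 2.55 and 3.66 (1.44-fold higher). Its partner subunit kif3b had 2.93 and 3.13 FPKM, and kif3cb, a gene of a neuronal kinesin-2 subunit, had 5.94 and 5.80. The homodimeric motor gene kif17 was low, at 0.286 and 0.335 FPKM.

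Of the 7 measured BBSome rows that met the rule, 5 were lower and 2 higher in the mutant library. Their median log2 difference was -0.14, and none was past 2-fold. The most abundant of these was bbs5, which encodes a membrane-binding subunit. It stood at 11.4 FPKM in wild-type larvae and 9.11 in mutants (1.25-fold lower). Next was ttc8, also known as BBS8 in humans, at 7.996 and 7.30 FPKM. The highest difference belonged to bbs2, at 5.54 and 8.02 FPKM (1.45-fold higher), and the lowest to bbs5, at -0.30 on the log2 scale. Close to it, at -0.29, was bbs9, with 1.57 and 1.09 FPKM. Those of bbs7 were 4.29 and 3.80 FPKM, those of bbs4 3.82 and 4.01, and those of bbs1 3.34 and 2.94. A further row named bbs4 in the same region was listed at 0. The BBSome rows that met the rule summed to 37.97 FPKM in wild-type larvae and 36.3 in mutants. This is not the sum of the whole complex. It leaves out bbip1, from the list of other cilia genes described below, which stood at 34.6 and 42.4 FPKM. The genes of chaperonin-like proteins that help assemble the BBSome, bbs12 and bbs10, had 1.46 and 1.32 FPKM and 1.09 and 1.36 FPKM.

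Of the ciliary GTPases and their partner phosphatase, arl6, which recruits the BBSome to membranes, stood at 19.6 FPKM in wild-type larvae and 23.0 in mutants. The GTPase gene arl13b, whose product marks the ciliary membrane, stood at 8.52 and 6.09 FPKM (1.40-fold lower). The product of inpp5e removes a phosphate from membrane phosphoinositides, and its values were 4.87 and 4.07 FPKM. None of the 3 reached 2-fold.

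The transition zone held the lowest difference of all 45 rows and went both ways among its parts. TMEM216, which encodes a gate membrane protein mutated in human ciliopathies, stood at 11.4 FPKM in wild-type larvae and 3.86 in mutants, 2.95-fold lower, with a log2 difference of -1.35. Its deposited region runs from 26112869 to 26120197 on Zv9 chromosome 14, and no other row shares it. The 3 B9 domain genes, whose products bind each other in the gate, were all higher in the mutant library, though none was called. The values were 2.03 and 3.90 FPKM for b9d2 (1.92-fold), 1.42 and 2.73 for mks1 (1.92-fold), and 6.80 and 8.14 for b9d1 (1.20-fold), which shares its region with epn2. Together they summed to 10.2 FPKM in wild-type larvae and 14.8 in mutants; this sum was chosen after the values were seen.

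None of the remaining gate genes reached 2-fold. On the lower side were tmem231 at 5.89 and 4.35 FPKM, tctn2, a tectonic gene, at 2.37 and 1.68, and cc2d2a at 1.95 and 1.40. Of these, tmem231 shares its region with gabarapl2, which stood at 54.0 and 65.7 FPKM. The values of tctn1 were 0.518 and 0.403 FPKM. The receptor-like tmem67 stood at 4.40 and 4.93 FPKM, in a region shared with RBM12B (1 of 2), at 1.78 and 1.48. The values of nphp4 were 0.835 and 0.974 FPKM. Over the 9 transition zone rows with a mean of at least 1 FPKM, the median log2 difference was -0.03, with 0 called higher and 1 lower. Of all rows at this level, 2.95% were called higher and 3.22% lower, and 9 rows are too few to compare with those shares.

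Genes of the motile axoneme were far less abundant than those of transport and gate. Only 9 of their 35 rows had a mean of at least 1 FPKM, against 36 of 42 rows for the transport, BBS and transition zone genes. The median over all their rows was 0.301 FPKM in wild-type larvae and 0.363 in mutants, against 3.27 and 3.83 FPKM for the other 42. Among the 9 measured rows, 2 were called higher, 1 lower and 6 lay within 2-fold. The shares of all rows at this level were 2.95% higher and 3.22% lower, and 9 rows are too few to compare with them. Both axoneme rows called higher lay below 1 FPKM in wild type. They reached the mean of 1 FPKM only through the mutant library, so their count supports nothing.

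Axonemal dynein heavy chain genes encode the motor subunits of the arms. Of the 13 rows, 12 had a mean below 1 FPKM or were listed at 0, and the exception was dnah9l, at 6.79 FPKM in wild-type larvae and 5.48 in mutants. Apart from dnah9l and 1 of the DNAH9 rows, no heavy chain row exceeded 0.457 FPKM in either library. That highest value belonged to dnah7 in wild type, and its mutant value was 0.155 FPKM. The outer arm gene dnah5 stood at 0.128 and 0.348 FPKM, dnah1 at 0.301 and 0.398, and dnah12 at 0.248 and 0.159. Lower still were dnah11 (0.213 and 0.184 FPKM), a second row of it (0.0661 and 0.105), DNAH3 (0.0989 and 0.0262) and dnah7l (0.0358 and 0.133). Among the 13, 4 were higher in the mutant library, 8 lower and 1 listed at 0 in both.

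A set of 4 rows named dnah9 or DNAH9 lie near one another on Zv9 chromosome 12, between 146320 and 262584. One was listed at 1.66 FPKM in wild-type larvae and at 0 in mutants, and its region, from 255852 to 262584, is short for a dynein heavy chain gene. Of the others, 1 had 0.395 and 0.151 FPKM, 1 had 0.286 and 0.213, and 1 was listed at 0 in both. Their sum was 2.34 FPKM in wild-type larvae and 0.364 in mutants. Each row alone has a mean below 1 FPKM, while the sum reached the 2-fold call, with a log2 difference of -1.29. The sum was chosen after the values were seen. It reached the mean of 1 FPKM only through the wild-type library, so its call supports nothing. Most of the sum in wild type came from the row listed at 0 in the mutant.

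Dynein intermediate and light chain genes encode the smaller subunits of the arms. Of their 10 rows, 4 had a mean of at least 1 FPKM, with 1 called higher and 1 lower. Among all rows at this level, 2.95% were called higher and 3.22% lower, and 4 rows are too few to compare with those shares. The row dnal4b stood at 12.1 FPKM in wild-type larvae and 5.52 in mutants, 2.20-fold lower, on Zv9 chromosome 22 from 25447524 to 25457203. Its log2 difference of -1.01 was just past the call, and it was -0.98 when the libraries were scaled to equal totals without the 50 most abundant rows. The related gene dnal4a, on chromosome 3, was equal between the libraries, at 4.86 and 5.00 FPKM, and so was dnal1, at 8.13 and 7.99. Summed, dnal4a and dnal4b had 17.0 and 10.5 FPKM, a log2 difference of -0.64; this sum was chosen after the values were seen. The sources used here do not say how reads shared by such related genes were assigned.

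The inner arm gene dnali1 has a pair of rows in 1 region of Zv9 chromosome 16, from 36207344 to 36402983, together with rows of other genes. One stood at 0.720 FPKM in wild-type larvae and 2.63 in mutants, 3.66-fold higher, and was called. The other had 0.529 FPKM in wild-type larvae and was listed at 0 in mutants. Their sum, 1.25 and 2.63 FPKM, had a log2 difference of 0.69 and did not reach the call. DNAI1 (1 of 2), an outer arm intermediate chain, stood at 0.927 and 0.603 FPKM, and DNAI2 (2 of 2) was listed at 0 in wild-type larvae and at 0.474 in mutants. The rows dnai1, dnai2a and DNAL1 (2 of 2) were listed at 0 in both libraries.

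Dynein assembly factors preassemble the arms in the cytoplasm. The values were 1.39 and 1.71 FPKM for dnaaf1, and 0.329 and 0.231 for dnaaf2. The row dnaaf3 was listed at 0 in wild-type larvae and had 0.206 FPKM in mutants.

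Tektins are filament proteins inside the axonemal microtubules, and their genes went both ways at very low levels. The values of tekt4 were 0.921 FPKM in wild-type larvae and 1.39 in mutants, and those of tekt1 were 0.816 and 0.845. Those of tekt2 were 1.24 and 0.363 FPKM (3.41-fold lower), and those of tekt3 were 0.204 and 0.801 (3.93-fold higher). The 4 genes together summed to 3.18 and 3.40 FPKM.

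All 5 radial spoke rows were higher in the mutant library, and 1 of them, rsph4a, was called. In the whole table, 11504 of the 23427 rows above 0 in either library were higher, and 2.95% of those passing the 1 FPKM filter were called higher. Of the 5 spoke rows, 3 did not pass that filter. The row rsph4a passed it only through its mutant value, so its call supports nothing, and a shared rise of the spoke genes was not tested. The spoke head gene rsph4a stood at 0.451 FPKM in wild-type larvae and 2.06 in mutants, 4.57-fold higher, on Zv9 chromosome 5 from 64980989 to 64992633. Another head gene, rsph9, was listed at 0 in wild-type larvae and had 0.654 FPKM in mutants. The stalk gene rsph3 stood at 0.279 and 1.53 FPKM (5.50-fold higher), with a mean below 1 FPKM and a log2 difference of 0.99. RSPH10B stood at 0.173 and 0.565 FPKM and RSPH1, the most abundant, at 2.80 and 3.73. Together the 5 summed to 3.70 FPKM in wild-type larvae and 8.55 in mutants. Of these 5, rsph3, RSPH10B and RSPH1 share their regions with other genes, ezrb (36.6 and 42.9 FPKM), dlgap5 (6.67 and 5.33) and fbxl3a (14.6 and 14.2) among them. The number of fragments behind these values is unknown, and no test of the 5 as a group was made.

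**Figure D3:**
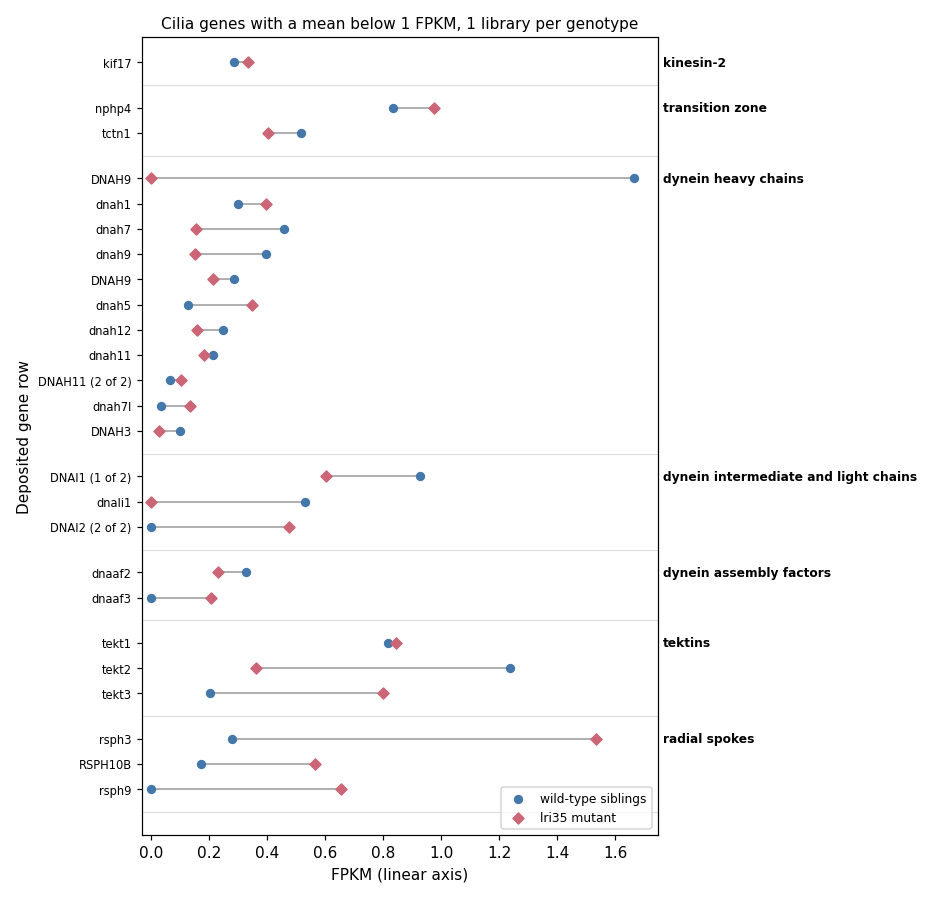
FPKM (linear axis) of 25 of the 26 cilia gene rows with a mean below 1 FPKM and a value above 0, grouped by role; circles are the wild-type library and diamonds the mutant library. Dynein heavy chains other than 1 DNAH9 row lie at or below 0.457 FPKM, the 3 radial spoke rows all have the diamond to the right, and the 6 rows listed at 0 in both libraries are left out.

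In the authors' deposited table, 28 of the 77 rows were tested and none was called significant, where 0.124% of the 14574 tested rows of the table were. None of the 28 had a p under 0.05 in the authors' deposited table, against 2.94% of all tested rows. The lowest p among them in the authors' deposited table was 0.169, for TMEM216, followed by 0.188 for dnal4b and 0.191 for bbs2. The lowest q of the 28 in the authors' deposited table was 0.994. The 49 untested rows, which include rsph4a and both dnali1 rows, had means of at most 3.14 FPKM. With 1 library per genotype, those p-values compare the libraries.

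Other genes of the cilium, were taken from a list of 103 symbols. Of these, 88 were found, in 93 rows, and 57 rows had a mean of at least 1 FPKM. Of the 57, 1 was called higher and 1 lower, or 1.75% in each direction against 2.95% and 3.22% of all rows, and the median log2 difference was -0.04. Higher was tctex1d2, a light chain gene of the dynein-2 motor that drives trains back from the tip, at 0.771 FPKM in wild-type larvae and 3.15 in mutants (4.09-fold). Lower was ccdc40, whose product sets the spacing of inner dynein arms and radial spokes along the axoneme, at 3.91 and 0.735 FPKM (5.31-fold). Both rows lay below 1 FPKM in 1 library and reached the mean of 1 FPKM only through the other, so neither call supports anything. The region of ccdc40 holds 2 other rows, and in the authors' deposited table its p was 0.0576.

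By group, 17 rows of other IFT, dynein-2 and BBS genes had a median of 0.01, and 14 rows of other transition zone and basal body genes had a median of 0.15. The 19 rows of other motile axoneme genes had a median of -0.06, with 8 above 0 and 11 below. Transcription factors that switch on ciliary genes were close to level, with a median of -0.07 over 7 rows. The forkhead genes of motile cilia, foxj1a and foxj1b, had 0.761 and 1.09 FPKM and 1.28 and 1.51 FPKM, in that order. Of the RFX factors, rfx2 stood at 9.93 and 8.74 FPKM, rfx3 at 4.74 and 3.50 and rfx4 at 3.35 and 3.15. The copies rfx1a and rfx1b had 4.06 and 3.83 FPKM and 6.45 and 6.01 FPKM. The multiciliogenesis regulator gmnc had 0.531 FPKM in both libraries, and myb had 2.47 and 3.63.

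**Figure D4:**
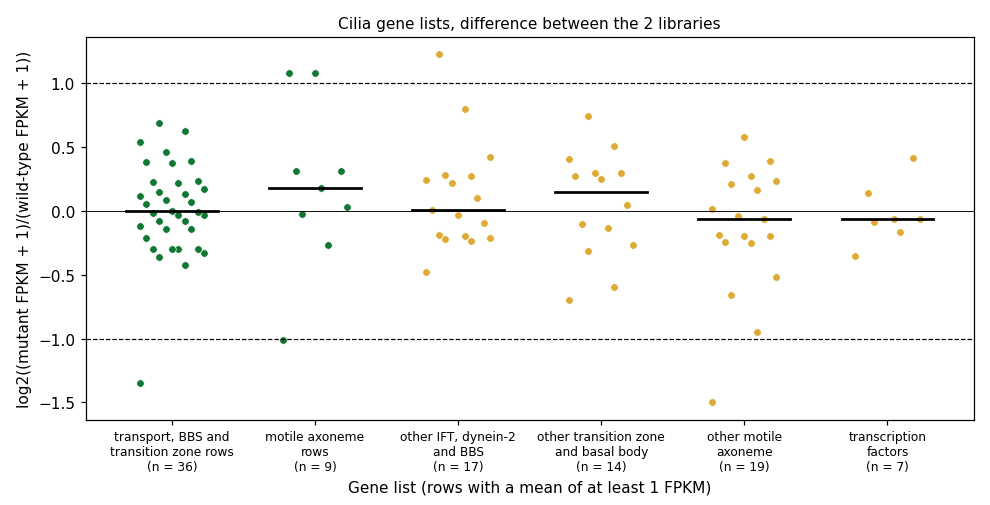
Log2 difference (mutant over wild type) of rows with a mean of at least 1 FPKM in the cilia genes and in 4 lists of other cilia genes; each point is a row, the bar is the median and the dashed lines mark the 2-fold call. Medians lie between -0.07 and 0.18, and the points past the lines include ccdc40 and tctex1d2.

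Markers of cell types that carry cilia were measured beside these genes. Photoreceptor markers had 0 of 13 rows called, with a median log2 difference of -0.11 and a sum of 4783 FPKM in wild-type larvae and 4208 in mutants. Of the 13, 4 were higher and 9 lower, and pde6h, among the lower, stood at 968.6 and 707.5 FPKM. Pronephros markers had a median of 0.03 over 9 rows, 1 of them called higher, and summed to 264.5 and 242 FPKM. Of the 9, 5 were higher and 4 lower, and the most abundant, atp1a1a.4, stood at 121.6 and 97.6 FPKM. Hair cell markers had a median of 0.05 over 6 rows with a mean of at least 1 FPKM. Of the 6, 3 were higher and 3 lower, and 1 was called higher. The lowest difference among the 6 was that of tmie, at 8.59 and 3.94 FPKM. All 10 hair cell rows summed to 77.9 and 76.2 FPKM. The called rows were 1 of the aqp8b rows for pronephros and atoh1a for hair cells. Each lay below 1 FPKM in wild type and reached the mean of 1 FPKM only through the mutant library. Their count therefore supports nothing, and 2.95% of all rows were called higher. Olfactory markers summed to 32.8 and 37.5 FPKM. The list headed ependyma and floor plate, which also holds pkd2l1, urp1 and urp2, summed to 27.5 and 23.5. Its most abundant row, urp1, stood at 12.8 and 6.88 FPKM, while shha stood at 6.10 and 8.31, so its sum does not show a shared direction. Within both lists the rows went both ways. With a mean of at least 1 FPKM, 1 olfactory row was higher and 1 lower. On the ependyma and floor plate list, 2 rows were higher and 3 lower. The part of these cell types in the differences of single cilia genes was not tested.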

How the data were processed

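The labels describe RNA extracted with a column kit and standard Illumina libraries, 1 per genotype. Per the submitters' processing notes, CASAVA, Bowtie and the Zv9 build were used, without versions or roles. The authors deposited 1 table with a value per library, read here as FPKM because the layout is that of a Cuffdiff table, and p-values and q-values, which the authors computed and which are only copied here. For the annotation release and the handling of shared reads, the sources used here say nothing. Rows were kept as deposited, and coordinates are the authors', on Zv9. The pseudocount was 1 FPKM, calls required a mean of at least 1 FPKM, and no test across samples was possible. Values were computed with Python 3.11.15, pandas 2.3.3 and numpy 2.4.6, and the code for the calls was run on simulated data. The simulated shifts were larger than the call and were placed only in rows more abundant than any called here. Calls at the levels seen here were therefore not tested by it. Relative depth was read from rows averaging no more than 0.3 FPKM and detected in each library. Alternatives changed the pseudocount, the filter, the scaling and the summing of rows. Every member was eligible to be named. Members past 2-fold and, for each role, the most abundant, highest and lowest were given first; of the other list, those past 2-fold and the transcription factors. The members and lists were chosen with earlier results of these data known. A current name table holds 57 of the 77 IDs, 52 of them under the same symbol. The values of 2 member rows are not reported here and enter only counts, sums and medians. Protein and promoter sequences were not used here.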

Additional observations from a re-analysis of the deposited data

How the results depend on the processing

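No paired analysis was possible because each genotype has 1 library. The call of TMEM216 held under each alternative except a pseudocount of 5 FPKM, under which 0 cilia rows were called higher and 0 lower, as were 0 and 0 of the other cilia list, with medians of 0.020 and -0.022. With a pseudocount of 0.1 FPKM the medians were 0.039 and -0.061, and 4 rows of the other list were lower. Of all rows, 4.92% were then higher and 5.63% lower, and 0.497% and 0.673% with a pseudocount of 5 FPKM. With a mean of at least 5 FPKM, 0 of 19 cilia rows were higher and 2 lower (median -0.017), and 0 and 0 of 20 on the other list (median -0.18). Among all 11607 rows at that level, 1.37% were higher and 1.71% lower. Without a filter, the other list had 2 higher and a median of 0.0052, and the cilia rows had 3 lower, DNAH9 being added. The shares of all rows were then 3.44% higher and 3.47% lower. Rescaling to a median ratio of 1 gave medians of 0.043 and -0.034. Equal totals without the 50 most abundant rows gave 0.061 and -0.018, and left 1 cilia row lower, as dnal4b moved to -0.98. Under that scaling, 3.16% of all rows were higher and 3.06% lower. Summing rows of 1 symbol left 1 cilia row higher, rsph4a, since dnali1 dropped out, and 3 lower, since DNAH9 was added, with a median of 0.019. The DNAH9 sum stood at 1.95 FPKM in wild-type larvae and 0.213 in mutants. It reached the mean of 1 FPKM only through the wild-type library, so its call supports nothing. In the whole table summed in this way, 2.87% were higher and 3.12% lower. Summing also across case and copy suffix, an alternative chosen after seeing the data, likewise left 1 higher and 3 lower and gave the other list a median of -0.052. The whole table then had 2.79% higher and 3.03% lower. No called row changed sign. Low levels and the lack of counts limit every value below 1 FPKM.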

Other observations

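The list of testis and germ cell markers held 1 row with a mean of at least 1 FPKM, the germline gene piwil1. It stood at 5.98 FPKM in wild-type larvae and 2.09 in mutants (2.86-fold lower), and its region holds 1 other row. The hair cell transcription factor gene atoh1a stood at 0.256 and 1.75 FPKM, in a region with 3 other rows, and the hair cell gene lhfpl5a had 1.94 FPKM in wild-type larvae and was listed at 0 in mutants. One of 2 rows of the water channel gene aqp8b stood at 0.598 and 2.27 FPKM. Several other cilia genes lay within the 2-fold call. The values of rabl5, an IFT-B GTPase gene, were 3.11 and 6.16 FPKM, those of ahi1, a transition zone gene, were 3.08 and 5.85, and those of mns1, an axonemal filament gene, were 2.30 and 0.711. The basal body gene ofd1 stood at 2.42 and 1.11 FPKM. All the genes given here were named after their values were seen.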
